A study of Mus musculus with 6 samples.

Results

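The 10 genes described here present antigen: 7 belong to the MHC class II pathway (*Cd74*, *H2-Aa*, *H2-Ab1*, *H2-Eb1*, *H2-DMa*, *H2-DMb1* and *Ciita*) and 3 to the class I pathway (*B2m*, *H2-K1* and *Tap1*). They were chosen by symbol and found as 10 of the 24421 genes of the count table, and all 10 were among the 16723 genes that passed the filter on low counts. RNA came from alveolar type II (AT2) cells, the surfactant-secreting epithelial cells of the lung, which had been sorted by FACS for their lineage label. Control mice had the genotype Sftpc-CreERT2/+; R26-tdTomato/+ and caBmpr1a mice the genotype Sftpc-CreERT2/+; R26-tdTomato/R26-caBmpr1a, with 3 poly(A) RNA libraries of each. Tamoxifen switches on Cre in cells that use the *Sftpc* promoter, which labels AT2 cells with tdTomato in both groups and, in the second, turns on caBmpr1a, a BMP type I receptor that signals without its ligand. Both groups thus carried the Cre driver, the reporter and the tamoxifen treatment. The tdTomato label reports its own allele, so a sorted cell need not have recombined the other. The mice of control replicates 1, 2 and 3 were 12, 16 and 12 weeks old, and those of caBmpr1a replicates 1, 2 and 3 were 16, 12 and 12 weeks old. The comparison asks how the antigen presentation genes of AT2 cells differ when BMP receptor signaling is held on.

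MHC class II molecules show peptides from endosomes to CD4 T cells. An alpha and a beta chain assemble in the endoplasmic reticulum around the invariant chain CD74, which is cut away in the endosome, and H2-DM then exchanges its last fragment for a peptide. CIITA, a coactivator that does not itself bind DNA, switches the class II genes on through RFX and NF-Y proteins bound to the X and Y boxes of their promoters. Class I molecules, made of a heavy chain and beta-2-microglobulin, show cytosolic peptides that the TAP transporter carries into the endoplasmic reticulum. AT2 cells are known to carry class II molecules in the healthy lung.

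Each library held between 21554249 and 28440227 counts. Values are given as CPM, the counts set to one library total with TMM factors, and 3 counts, the limit that a count of 0 allows, came to between 0.0976 and 0.138 CPM, which covers counting error only. Control replicate 1 and caBmpr1a replicate 3 stood apart: reads on *Ddx3y*, *Eif2s3y*, *Kdm5d* and *Uty*, all on the Y chromosome, came to 176 and 146 CPM in them and to 0 elsewhere, so the values of the members, of the genes named for an unadjusted p under 0.05 in the lists of antigen presentation, and of the leukocyte, endothelial and mesenchymal lists are also given within the remaining 4 libraries. The AT2 label held, with between 42699.5 and 60123 CPM of *Sftpc*, the surfactant protein C gene. Summed over 12 AT2 markers, the level was 127157 to 141056 CPM in control and 103690 to 118755 CPM in caBmpr1a libraries. By an unadjusted p under 0.05, *Sftpa1*, *Sftpd*, *Lamp3*, *Etv5* and *Cxcl15* were lower and *Nkx2-1* higher, with none called. Over all tested genes, 5.05% were lower and 4.62% higher by that measure. The BMP targets *Id1*, *Id3*, *Smad6*, *Smad9* and *Atoh8* were called higher in caBmpr1a cells, where 0.239% of all tested genes were. All 7 targets listed had every caBmpr1a value above every control value, beside 7% of all tested genes. Markers of other cells were present too. Those of leukocytes are given below beside the class II genes. Summed over 5 endothelial markers (*Pecam1*, *Cdh5*, *Kdr*, *Emcn* and *Cldn5*), the level was 142 to 309.9 CPM in control and 277 to 448 CPM in caBmpr1a libraries, and over 6 mesenchymal markers (among them *Col1a1*, *Col1a2* and *Col3a1*) 134 to 180.3 and 223 to 275 CPM. Their median log2 fold changes were 0.69 and 0.66 (0.55 and 0.63 in the 4 libraries), larger than that of the class II genes below. By an unadjusted p under 0.05, 4 of the 5 endothelial genes (all but *Kdr*) were higher, beside 4.62% of all tested genes. So were 3 of the 6 mesenchymal genes (the collagens named). The collagens had every caBmpr1a value above every control value, beside 7% of all tested genes, and no gene of either list was called. The part that endothelial and mesenchymal RNA has in the results was not tested. Summed over 6 AT1 and over 5 airway markers the groups overlapped, as they did for *Ager* (1184 to 1995 CPM) and *Scgb1a1* (411 to 652 CPM). *Rtkn2* was higher and *Aqp5* lower by an unadjusted p under 0.05. All caBmpr1a values lay below all control values for *Aqp5* and above them for *Foxj1*, as for 10.1% and 7% of all tested genes. The basal cell gene *Krt5* was at 0 in every library.

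Per kilobase of exon, which allows levels to be compared between genes, *Cd74* was the highest of the 10 in both groups, at 2391 ± 473 CPM per kilobase in control and 2782 ± 427 in caBmpr1a cells (SD, n = 3). By mean CPM, *Cd74* ranked 15 among all genes of the table. In control cells it was followed by *H2-K1* (861 ± 67.4), *H2-Aa* (775 ± 153) and *H2-Ab1* (634 ± 135), all in CPM per kilobase, and neighbours among these 3 overlapped. *B2m* (324 ± 28.7) and *H2-Eb1* (274 ± 61.9) came next and also overlapped. Below them *H2-DMb1* (106 ± 15.4), *H2-DMa* (41.3 ± 9.54), *Tap1* (15.9 ± 0.500) and *Ciita* (8.59 ± 3.52) each lay below the gene before it in every control library. In caBmpr1a cells *H2-Aa* and *H2-Ab1* had the higher means than *H2-K1*, at 930.0 ± 107, 856 ± 158 and 819 ± 56.3 CPM per kilobase, but these neighbours overlapped as well, as did *H2-Eb1* and *B2m*, and *Tap1* and *Ciita*. Together the 7 class II genes took from 0.459% to 0.859% of all counts of a library.

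**Figure D1:**
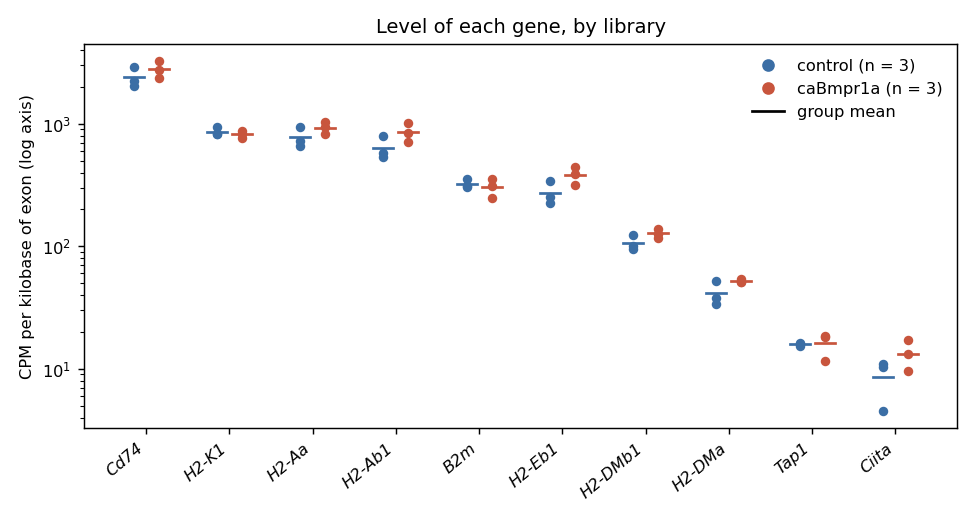
Level of each of the 10 genes in CPM per kilobase of exon on a log axis, with 1 point per library (blue, 3 control; red, 3 caBmpr1a) and a bar at each group mean. *Cd74* is highest at 2391 and 2782 CPM per kilobase and *Ciita* lowest at 8.59 and 13.3, and the points of both groups overlap for every gene.

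No member was called different at an adjusted p under 0.05 (quasi-likelihood test of edgeR, adjusted after Benjamini and Hochberg over all genes tested), against 0.239% of all tested genes called higher (40 genes) and 0.012% called lower (2 genes). DESeq2 and limma-voom called no member either. The 7 class II genes all had higher fitted levels in caBmpr1a cells, with log2 fold changes from 0.22 to 0.63 and a median of 0.33, beside a median of -0.0096 over all tested genes, of which 48.8% were above 0. At an unadjusted p under 0.05, 1 class II gene was higher, where 4.62% of all genes were higher and 5.05% were lower. The 3 class I genes had log2 fold changes from -0.087 to 0.020. For all 10 genes the groups overlapped, whereas 7% of tested genes had all caBmpr1a values above all control values and 10.1% had all below. Whether the class II and class I genes differ in their change was not tested.

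Among the peptide-binding chains, *H2-Eb1*, the I-E beta chain on chromosome 17 of mm10 from 34305867 to 34316674, had the largest log2 fold change. Its level was 574, 375 and 425 CPM in control replicates 1, 2 and 3 and 533, 651 and 739.8 CPM in caBmpr1a replicates 1, 2 and 3. Only control replicate 1 reached into the caBmpr1a range, where it lay above the lowest library. Its log2 fold change of 0.49 had a standard error of 0.20 (95% interval 0.037 to 0.93, unadjusted p = 0.0371, adjusted p = 0.485 from edgeR). *H2-Ab1*, the I-A beta chain from 34263227 to 34269418 on the same chromosome, had 939.9, 636 and 692 CPM in control and 841, 1005 and 1217 CPM in caBmpr1a libraries. Its pattern was that of *H2-Eb1*, with control replicate 1 above caBmpr1a replicate 1, and its log2 fold change of 0.43 had a standard error of 0.20 (adjusted p = 0.541 from edgeR). *H2-Aa*, the I-A alpha chain that pairs with the *H2-Ab1* product, lies from 34282751 to 34287771 on the minus strand. It had 1014, 703 and 770.2 CPM in control and 877, 1001 and 1105 CPM in caBmpr1a libraries, so that control replicate 1 exceeded 2 of the caBmpr1a libraries. For *H2-Aa* the log2 fold change came to 0.26 (standard error 0.18, 95% interval -0.14 to 0.67, adjusted p = 0.666 from edgeR).

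*Cd74*, the invariant chain on chromosome 18 from 60803849 to 60812652, had 4140.1, 2868 and 3141 CPM in control and 3361, 3882 and 4566 CPM in caBmpr1a libraries. Control replicate 1 was higher than 2 of the 3 caBmpr1a libraries. A log2 fold change of 0.22 (standard error 0.20, 95% interval -0.24 to 0.67, adjusted p = 0.750 from edgeR) was the smallest of the 7. Single libraries moved it: without control replicate 1 or 2 it was 0.38 or 0.11, and without caBmpr1a replicate 1 or 3 it was 0.35 or 0.14. Without control replicate 1 or 2, *H2-Aa* likewise had 0.43 or 0.15 on this scale. Exons of *Cd74* overlap 1 other gene of the table, *Mir5107*, and reads over both were left out of the counts. Of the peptide exchange factor, *H2-DMa* (chromosome 17, 34122832 to 34139101) had 86.3, 56.1 and 63.0 CPM in control and 84.7, 84.2 and 89.4 CPM in caBmpr1a libraries. The 3 caBmpr1a values lay close together, at the level of control replicate 1 and above the other 2 controls. *H2-DMb1* (chromosome 17, 34153191 to 34160229) had 159, 121 and 129 CPM in control and 150.2, 162 and 178 CPM in caBmpr1a libraries. The log2 fold changes were 0.33 (standard error 0.16, adjusted p = 0.564 from edgeR) for *H2-DMa* and 0.26 (standard error 0.14, adjusted p = 0.596 from edgeR) for *H2-DMb1*. Without control replicate 1 or 2, *H2-DMa* had 0.53 or 0.20.

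*Ciita*, which encodes the coactivator, lies on chromosome 16 from 10480072 to 10527640. Its level was 27.2, 62.2 and 65.2 CPM in control and 79.9, 102.1 and 57.4 CPM in caBmpr1a libraries. Both libraries with reads on Y-linked genes, control replicate 1 and caBmpr1a replicate 3, were the lowest of their group, the reverse of the other 6 class II genes, for which they were the highest. The log2 fold change of 0.63 (standard error 0.33, 95% interval -0.12 to 1.38, adjusted p = 0.589 from edgeR) was the largest of the 10 genes and also the least precise. Without control replicate 1 it was 0.32, and without caBmpr1a replicate 3 it was 0.85.

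**Figure D2:**
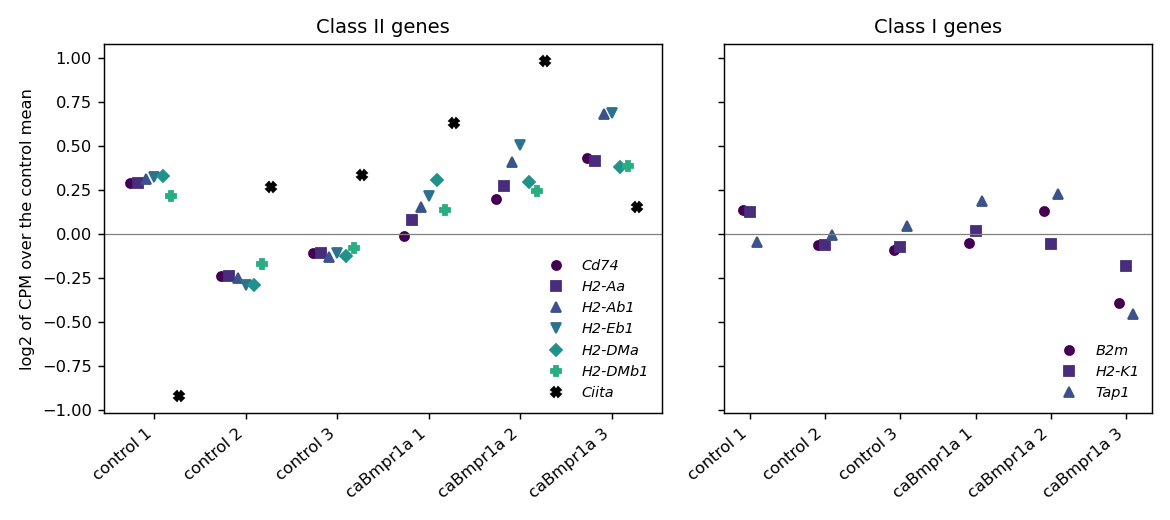
Log2 ratio of each library's CPM to the control mean, for the 7 class II genes (left, *Ciita* in black) and the 3 class I genes (right), with 1 marker per gene in each library and 0 at the control mean. In control 1, 6 class II genes lie from 0.22 to 0.33 while *Ciita* lies at -0.92, and in caBmpr1a 3 the same 6 lie from 0.38 to 0.69 and *Ciita* at 0.16.

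Across the 6 libraries, the 6 class II genes other than *Ciita* moved together. Their 15 pairs had Pearson's r of log2 CPM from 0.87 to 0.99, with a median of 0.97, whereas *Ciita* had r from -0.30 to 0.0029 with them. With the group means taken out, *Ciita* was inverse to them, with r from -0.88 to -0.79, and the 15 pairs had r from 0.81 to 0.998. These are descriptions over 6 points that share library depth, scaling and the split by reads on Y-linked genes. Of 9222 other genes with a mean of at least 10 CPM, those with the profile most like the mean of the 6 were *Prdx4*, *Samd1*, *Pepd*, *Pcsk4* and *Edem2*, with r from 0.98 to 0.99.

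Within the 4 libraries that had no such Y-linked reads, the class II genes separated. Both caBmpr1a values lay above both control values for 7 of 7 class II genes, and for the 3 class I genes as well, where 19.4% of all genes tested in these libraries were separated in that direction. The libraries left out held the class II values that overlapped: control replicate 1 for all but *Ciita*, and caBmpr1a replicate 3 for *Ciita*. The 7 are not independent results, since those other than *Ciita* moved together. In a fit of these 4 libraries all 7 class II genes had an unadjusted p under 0.05. By that measure 6.26% of all genes were higher. The class I gene *Tap1* was higher by it too, with a log2 fold change of 0.22 (unadjusted p = 0.0374 from edgeR). The median log2 fold change of the 7 class II genes was 0.51. No member was called, the lowest adjusted p from edgeR being 0.0554 for *H2-DMa*, with a log2 fold change of 0.54. *H2-Eb1* had 0.60 and *Ciita* 0.55 on the same scale. The other 2 libraries, 1 of each group, allow no test. The log2 ratio of caBmpr1a replicate 3 to control replicate 1 was 1.08 for *Ciita*, 0.37 for both *H2-Ab1* and *H2-Eb1*, 0.17 for *H2-DMb1*, 0.14 for *Cd74*, 0.12 for *H2-Aa* and 0.050 for *H2-DMa*.

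With the reads on Y-linked genes as a covariate over all 6 libraries, a setting chosen after the data had been seen, 6 of the 7 class II genes had an unadjusted p under 0.05 (7.97% of all genes were higher by that measure) and *Ciita* alone of the 10 was called. Its log2 fold change in that fit, 0.70 with a standard error of 0.14, had an adjusted p = 0.0400 from edgeR, where 1.27% of all genes were called higher. The median of the 7 was 0.35.

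**Figure D3:**
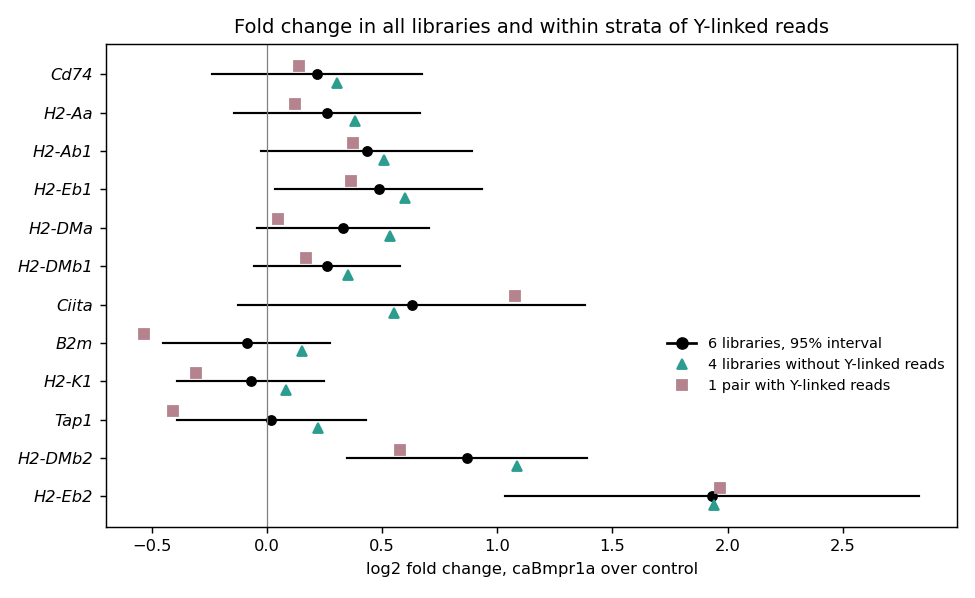
Log2 fold change of caBmpr1a over control for the 10 genes and for *H2-DMb2* and *H2-Eb2*, from all 6 libraries (black points, bars for 95% intervals), from the 4 that had no Y-linked reads (triangles) and as the ratio of the remaining pair (squares, with no replicate). All 3 values are above 0 for the 7 class II genes, while *B2m*, *H2-K1* and *Tap1* have pair ratios of -0.53, -0.31 and -0.41 and 4-library values of 0.15, 0.081 and 0.22.

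The class I values differed little between groups. *B2m*, the light chain shared by all class I molecules, lies on chromosome 2 from 122147687 to 122153082. It had 306, 266 and 261 CPM in control and 268, 304 and 212 CPM in caBmpr1a libraries, with caBmpr1a replicate 3 the lowest of all 6. *H2-K1*, a classical class I heavy chain on chromosome 17 from 33996012 to 34000333, had 1544, 1358 and 1347 CPM in control and 1433, 1365 and 1249 CPM in caBmpr1a libraries. Its whole range over the 6 libraries was 1.24-fold. *Tap1*, a subunit of the peptide transporter, lies within the class II region of chromosome 17 from 34187556 to 34197225. Its 3 control values of 45.3, 46.7 and 48.3 CPM lay between the caBmpr1a values of 53.4, 54.8 and 34.2 CPM. The log2 fold changes were -0.087 (95% interval -0.45 to 0.27, adjusted p = 0.885 from edgeR) for *B2m*, -0.071 (-0.39 to 0.25, adjusted p = 0.896 from edgeR) for *H2-K1* and 0.020 (-0.39 to 0.43, adjusted p = 0.979 from edgeR) for *Tap1*. The sign of all 3 turned with the libraries or the scaling used: without caBmpr1a replicate 3, *B2m* had 0.085 and *H2-K1* 0.021, and without caBmpr1a replicate 2, *Tap1* had -0.081. Reads of *H2-K1* can be lost to or shared with its near-identical relatives, and *H2-L*, *H2-Q6* and *H2-T22* were at 0 in every library.

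The largest log2 fold changes of class II genes were those of a pair outside the members. *H2-Eb2*, a second E beta gene just beyond *H2-Eb1*, had 1.97, 1.41 and 1.22 CPM in control and 3.39, 6.44 and 7.71 CPM in caBmpr1a libraries, from 32 to 237 counts. Every caBmpr1a value was above every control value, with a log2 fold change of 1.93 (standard error 0.39, 95% interval 1.03 to 2.83, unadjusted p = 0.00102, adjusted p = 0.137 from edgeR). *H2-DMb2*, a second H2-DM beta gene, had 11.1, 8.92 and 6.02 CPM in control and 13.9, 16.95 and 16.6 CPM in caBmpr1a libraries. It too showed no overlap, with a log2 fold change of 0.87 (standard error 0.23, unadjusted p = 0.00475, adjusted p = 0.273 from edgeR). Neither was called by edgeR over the 6 libraries. DESeq2, the package that the methods name, called both, with adjusted p-values of 0.000332 for *H2-Eb2* and 0.0375 for *H2-DMb2*. Over all genes DESeq2 called 200 higher among the 22262 that had a p-value, whether or not they had an adjusted one. Both were also called by edgeR with the covariate for reads on Y-linked genes (0.0196 and 0.0498). That fit called 1.27% of all genes higher, against 0.239% without the covariate. In the 4 libraries *H2-Eb2* had a log2 fold change of 1.94 and *H2-DMb2* of 1.09, and the ratio of the remaining pair was 1.97 and 0.58 on the same scale. Each is close in sequence to a member at a far higher level, *H2-Eb1* and *H2-DMb1*, so how their reads were divided is uncertain. *H2-Ob*, a chain of the DM inhibitor H2-DO, had 0.493 to 5.82 CPM with overlapping groups, and *H2-Oa*, the other chain, had at most 0.698 CPM and did not pass the filter. *H2-Ea-ps*, the I-E alpha gene named here as a pseudogene, had between 0 and 64 counts. C57BL/6 mice, the background the methods give, lack a working I-E alpha chain.

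Along chromosome 17, from *H2-Oa* to *H2-Ea-ps*, 9 class II genes were tested and 8 had a log2 fold change above 0, with a median of 0.43. Between them lie *Brd2*, a chromatin reader, the immunoproteasome genes *Psmb8* and *Psmb9*, and the transporter genes *Tap1* and *Tap2*, named here by their position. Of these 5 genes, 2 were above 0, with a median of -0.0040 and a range from -0.21 to 0.096. No gene of the region was called by edgeR over the 6 libraries, while DESeq2, and edgeR with the covariate, called *H2-Eb2* and *H2-DMb2* as given above.

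**Figure D4:**
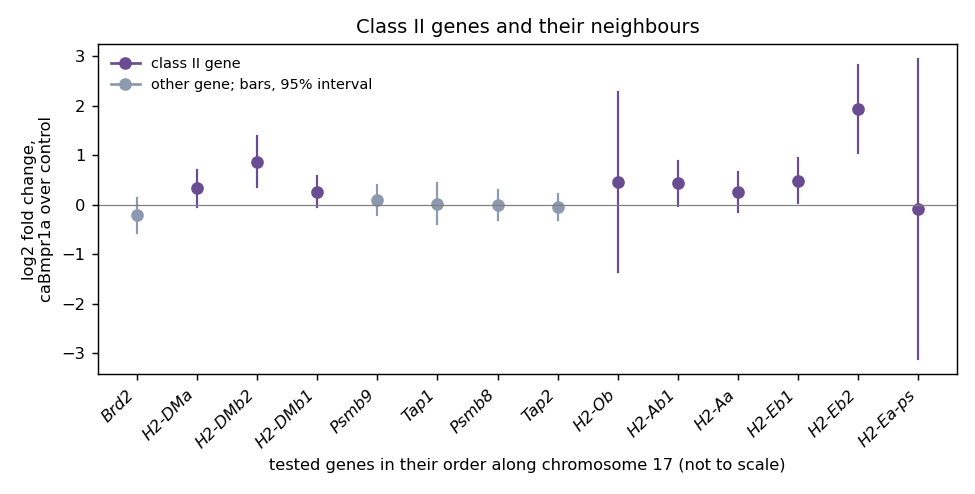
Log2 fold change of caBmpr1a over control with its 95% interval (bars) for the 14 tested genes from *Brd2* to *H2-Ea-ps*, in their order on chromosome 17 and not to scale (purple, class II; grey, other). *H2-Eb2* at 1.93 and *H2-DMb2* at 0.87 lie highest, and the 5 other genes lie between -0.21 and 0.096.

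The promoters of 5 class II genes are shown because they hold blocks of sequence to which the class II factors are known to bind. RefSeq windows of GRCm38.p6, the same build as mm10, were at hand for 7 of the 10 members, without *Cd74*, *H2-Ab1* and *Ciita*. Each sequence holds the 140 bases before the annotated start, on the strand of the gene and from 5′ to 3′: chr17:34305727-34305866 (plus strand) for *H2-Eb1*, chr17:34325535-34325674 (plus) for *H2-Eb2*, chr17:34153051-34153190 (plus) for *H2-DMb1*, chr17:34145109-34145248 (plus) for *H2-DMb2* and chr17:34287824-34287963 (minus) for *H2-Aa*. Capitals mark the Y box CTGATTGG, its core ATTGG (contained in the Y box) and the end of the X box, ACNGATG, on either strand.
H2-Eb1: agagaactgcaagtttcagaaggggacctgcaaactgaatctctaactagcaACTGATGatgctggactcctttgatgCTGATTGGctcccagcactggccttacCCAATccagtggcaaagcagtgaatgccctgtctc
H2-Eb2: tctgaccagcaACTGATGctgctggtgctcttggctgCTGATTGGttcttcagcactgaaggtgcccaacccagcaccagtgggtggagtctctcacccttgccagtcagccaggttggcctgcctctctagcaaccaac
H2-DMb1: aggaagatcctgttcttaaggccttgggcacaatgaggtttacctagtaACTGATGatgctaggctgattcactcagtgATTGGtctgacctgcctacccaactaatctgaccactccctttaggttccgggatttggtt
H2-DMb2: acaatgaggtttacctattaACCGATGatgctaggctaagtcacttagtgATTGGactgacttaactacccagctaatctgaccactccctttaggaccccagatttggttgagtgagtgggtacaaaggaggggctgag
H2-Aa: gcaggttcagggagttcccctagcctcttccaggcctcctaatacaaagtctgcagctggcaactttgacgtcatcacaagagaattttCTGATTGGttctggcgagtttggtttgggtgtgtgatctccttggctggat

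In the first 4 of these promoters an X box end was followed by a Y box core, with 29 bases from first base to first base in *H2-Eb1* and *H2-Eb2* and 30 in *H2-DMb1* and *H2-DMb2*. Of all 32851 RefSeq promoter windows of 300 bases, 11 (0.0335%) held that arrangement on the strand of the gene. These 11 include the 4 given here, and the spacing was chosen after these matches had been seen. The full Y box was in *H2-Eb1*, *H2-Eb2* and *H2-Aa* and in 4.1% of all windows, the core in 37.4% and the X box end in 9.85%, both strands searched. *H2-Aa* had a Y box starting 51 bases before its start and no X box end near it. For comparison, the window of *B2m* held the core alone, starting 53 bases before the start, and those of *Tap1* and *H2-K1* a Y box on the opposite strand, near the start in *H2-K1*. *H2-DMa*, a class II gene, had neither the Y box nor the X box end in its windows, though 1 of them held the core. *H2-Oa*, hardly detected, had both boxes, farther apart. The Y box and its core did not divide class II from class I genes in these windows. The X box end was in no window of *B2m*, *H2-K1* or *Tap1*, but the class II genes *H2-DMa* and *H2-Ob* lacked it as well. An interferon response core, AAANNGAA, was in the windows of *H2-Eb1*, *B2m* and 1 of the starts of *H2-DMa*, and in 23.7% of all windows. A match describes letters in a window and does not show that a factor binds there.

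Among the factors that bind these boxes, none of 7 genes had an unadjusted p under 0.05. *Nfya* had 61.4, 65.4 and 70.2 CPM in control and 53.1, 61.4 and 62.9 CPM in caBmpr1a libraries, and *Rfx5*, a DNA-binding RFX subunit, had 36.5, 39.5 and 44.9 CPM against 40.2, 43.0 and 31.3 CPM. *Nfyc* had all caBmpr1a values below all control values (log2 fold change -0.23) and *Rfxap* all above (0.17), beside 10.1% and 7% of all tested genes. The median log2 fold change of the 7 was -0.080. Of 15 genes of the interferon-gamma receptor, its signaling and its targets, which include the inducers of *Ciita*, 7 were above 0 and the median was -0.022. *Irf8*, an interferon regulatory factor of immune cells, had 6.46, 5.79 and 5.03 CPM in control and 10.6, 8.38 and 7.19 CPM in caBmpr1a libraries, without overlap (log2 fold change 0.60, unadjusted p = 0.0230, adjusted p = 0.430 from edgeR, and 0.85 in the 4 libraries). *Irf1* and the receptor gene *Ifngr1* overlapped between groups. *Socs3*, *Jak1* and *Jak2*, which encode an inhibitor and the kinases of the pathway, were the highest of the list and overlapped too.

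The endosomal enzymes that cut antigen and the invariant chain did not pass the test in either direction. Of 10 tested genes 7 were above 0, with a median of 0.17. *Ctsh*, cathepsin H, had 1353, 811 and 662 CPM in control and 819, 1005 and 1736 CPM in caBmpr1a libraries. *Ifi30*, the endosomal thiol reductase, had 235, 122 and 115 CPM in control and 137, 140.1 and 245 CPM in caBmpr1a libraries. Both had their highest value of each group in the libraries with reads on Y-linked genes, as 6 of the class II genes did. *Ctsb* and *Ctsd* varied less but did not overlap between groups. *Ctsb* had 548 to 569 CPM in control and 522 to 540 CPM in caBmpr1a libraries, and *Ctsd* 293 to 327 and 329 to 377 CPM. Of the 10 genes, 3 had all caBmpr1a values below all control values and 1 had all above, beside 10.1% and 7% of all tested genes. The ubiquitin ligase gene *March1*, whose product removes class II from the surface, had 1.63 to 3.12 CPM with overlapping groups. *Ctss*, the cathepsin of professional presenting cells, was highest in caBmpr1a replicate 1 at 23.5 CPM and had 5.66 to 11.6 CPM in the others.

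Co-stimulatory genes were low beside class II. *Cd80* and *Cd86*, the ligands of CD28, stayed at or below 0.543 and 1.74 CPM. *Cd83*, which stabilises class II at the surface, had 19.6, 16.8 and 21.9 CPM in control and 16.5, 12.5 and 7.32 CPM in caBmpr1a libraries, so that every caBmpr1a value lay below every control value (log2 fold change -0.69, unadjusted p = 0.0336, adjusted p = 0.471 from edgeR, and -0.39 in the 4 libraries). *Cd274*, which encodes the inhibitory ligand PD-L1, had 2.69, 2.49 and 3.01 CPM in control and 6.65, 4.58 and 3.16 CPM in caBmpr1a libraries, all above the controls (log2 fold change 0.81, unadjusted p = 0.0429, adjusted p = 0.499 from edgeR, and 1.06 in the 4 libraries). Of the 7 tested genes of the list none was called. *Cd276*, *Icosl* and *Cd40* overlapped between groups.

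Of the genes that supply and load class I peptides, none was called. *Calr*, *Canx* and *Pdia3* encode calreticulin, calnexin and ERp57, chaperones that fold class I and many other glycoproteins. *Calr* had 459.6, 449 and 401 CPM in control and 346, 312 and 344 CPM in caBmpr1a libraries, *Canx* had 313, 337 and 316 CPM against 274, 258 and 231 CPM, and *Pdia3* had 451, 412 and 417 CPM against 361, 349.8 and 320.4 CPM. All caBmpr1a values of these 3 genes were below all control values, as they were for 10.1% of all tested genes. Their log2 fold changes were -0.39, -0.34 and -0.31, with unadjusted p-values of 0.0130, 0.0214 and 0.0301 and adjusted p-values of 0.377, 0.422 and 0.461 from edgeR, all above the threshold. In the 4 libraries they were -0.34, -0.26 and -0.19. *Tapbp*, *Psme1* and *Tap2*, which encode tapasin, a proteasome activator subunit and the partner of TAP1, had log2 fold changes of -0.19, -0.063 and -0.043, and 11 of the 14 genes of the list were below 0. Among 15 tested class I heavy chains and related genes 11 were above 0, with *H2-M3* at 0.57 (unadjusted p = 0.0381, adjusted p = 0.485 from edgeR, and 0.89 in the 4 libraries), *H2-Q4* at 0.24, *H2-T23* at 0.29 and *H2-D1* at -0.087. None of the 72 tested genes of these 7 lists was called by edgeR over the 6 libraries, while 5 were higher by an unadjusted p under 0.05 (*H2-Eb2*, *H2-DMb2*, *Irf8*, *Cd274* and *H2-M3*) and 4 lower (*Calr*, *Canx*, *Pdia3* and *Cd83*), beside 4.62% and 5.05% of all tested genes.

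Leukocytes carry class II as well, so their markers were set beside the class II sum. The 7 class II genes summed to 6939.8, 4822 and 5286 CPM in control and 5926, 6887 and 7952 CPM in caBmpr1a libraries. *Ptprc*, which encodes the pan-leukocyte protein CD45, had 6.14, 11.7 and 16.3 CPM in control and 32.0, 17.5 and 7.36 CPM in caBmpr1a libraries. The libraries with the highest class II sum of their group, control replicate 1 and caBmpr1a replicate 3, had the lowest *Ptprc*. They are the libraries with reads on Y-linked genes. In the other 4 libraries the class II sum and *Ptprc* were both higher in each caBmpr1a library than in each control library. The sum of 8 pan-leukocyte markers, mostly *Lcp1*, was 230.4 to 415 CPM in control and 231 to 432 CPM in caBmpr1a libraries, and 7 of the 8 were highest in caBmpr1a replicate 1. Without *Lcp1*, whose log2 fold change was -0.077, the other 7 were all above 0, and the median of the 8 was 0.73 (0.97 in the 4 libraries), above the 0.33 of the class II genes. Over 10 macrophage and monocyte markers the sum was 73.6 to 76.8 CPM in control and 59.8 to 169.7 CPM in caBmpr1a libraries, 8 of the 10 being highest in caBmpr1a replicate 1. Their median log2 fold change was 0.78 (1.04 in the 4 libraries). Of the 10, 4 (*Adgre1*, *Siglecf*, *Itgam* and *Ccr2*) were above every control in all 3 caBmpr1a libraries, beside 7% of all tested genes. *Itgam* had a log2 fold change of 0.86, with an unadjusted p = 0.0202 and an adjusted p = 0.418 from edgeR. The 8 dendritic cell markers, each low, summed to 19.3 to 21.9 CPM in control and 27.3 to 35.2 CPM in caBmpr1a libraries. These sums did not overlap, but for each single marker the groups did. Of the 8 log2 fold changes, 6 were above 0 and 2 below. The largest was that of *Itgax*, which had 3.09, 3.09 and 4.91 CPM against 16.5, 8.73 and 2.31 CPM. *Itgax* was also the highest of the 8 in caBmpr1a replicate 1. There *Itgax* made up 16.5 of the summed 35.2 CPM, and without *Itgax* the sums of the groups overlapped narrowly. *Xcr1* had at most 1.57 CPM. The 6 B cell markers of the table, led by *Cd79b*, summed to 30.1 to 39.3 and 21.6 to 46.9 CPM. The dendritic and B cell lists had median log2 fold changes of 0.50 and 0.35 (0.28 and 0.45 in the 4 libraries). Without caBmpr1a replicate 1 the median of the 7 class II genes was 0.37. The part that leukocyte RNA has in the class II values was not tested, and in sorted bulk RNA more cells of a type and more RNA per cell cannot be told apart.

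**Figure D5:**
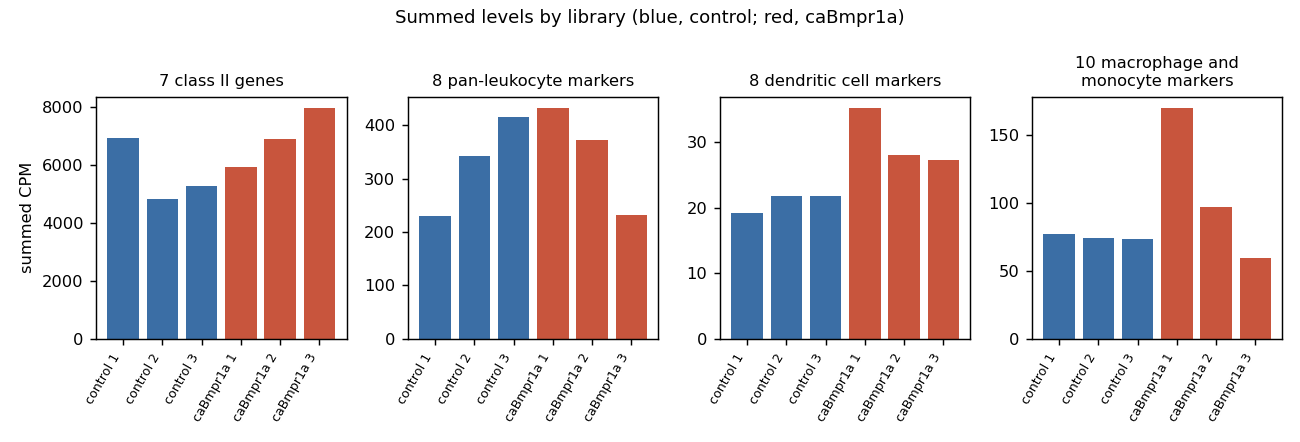
Summed CPM of the 7 class II genes and of 8 pan-leukocyte, 8 dendritic cell and 10 macrophage and monocyte markers in each library, with bars from 0 (blue, control; red, caBmpr1a). The class II sum is highest in caBmpr1a 3 at 7952 CPM, whereas the macrophage sum is highest in caBmpr1a 1 at 169.7 CPM and lowest in caBmpr1a 3 at 59.8 CPM. Control 1 and caBmpr1a 3 are the libraries with reads on Y-linked genes.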

How the data were processed

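RNA from FACS-sorted, lineage-labelled AT2 cells was sequenced as paired reads. The authors trimmed reads, aligned them to mm10 with HISAT2, removed duplicates and deposited raw read counts per gene from featureCounts 1.5.3, without normalization. Strand was not used, and reads over overlapping genes were left out. From 56.9% to 60.8% of the counts between 1 and 20 were even, so mates were probably counted apart and low counts look more precise than they are. No column of per-sample values was left unused. Groups and replicate numbers came from the sample labels, which give each replicate an age but do not say that it is a single animal, so p-values measure the spread between these libraries.

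The quasi-likelihood test of edgeR 4.0.16 (R 4.3.3) was run with TMM scaling on genes past its expression filter (minimum count 10). P-values were adjusted by Benjamini-Hochberg over all tested genes, with a call made below an adjusted p of 0.05. The steps were tested on simulated data. Alternatives were DESeq2 1.42.0, limma-voom (limma 3.58.1), other scalings and filters, age or the replicate number as a term, halved counts, 4 libraries and each library left out. The covariate for reads on Y-linked genes was added after the data had been seen. The members and gene lists were chosen with earlier results of these data known. Named were all members and, from the other lists, genes with an unadjusted p under 0.05 and up to 3 with the highest CPM, as well as the 5 genes most like the class II profile. Other names (such as *Rfx5*, *Ifi30*, *Ctss*, *March1*, *Cd80*, *Cd86*, *Irf1*, *Ifngr1*, *Itgax* and *Xcr1*) were chosen after their values were seen. CPM used TMM-scaled library totals. Same-numbered libraries had deviations from the group means that correlated at -0.25, 0.21 and -0.53 across genes, so the numbers were not taken as pairs. A withheld item is not reported here.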

Additional observations from a re-analysis of the deposited data

How the results depend on the processing

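No member was called under edgeR with any other scaling or filter, DESeq2, limma-voom, age as a covariate, halved counts, the 4 libraries or any 1 library left out, and 1 member (*Ciita*, log2 fold change 0.70) was called with the covariate for reads on Y-linked genes. Of the 72 other pathway genes tested by edgeR none was called, against 2 with DESeq2 and 2 with that covariate, *H2-DMb2* and *H2-Eb2* both times. The median log2 fold change of the 7 class II genes stayed above 0, from 0.32 to 0.51 over the settings and from 0.20 to 0.43 with 1 library left out, and each of the 7 kept its sign in all 18 alternatives. Scaling by library size only raised the median of all genes to 0.12, against -0.0096 with TMM. With the replicate block no member was called and the class II median was 0.35, with 36 genes called higher and 5 lower among all genes. The class I median was 0.15 in the 4 libraries and ran from -0.11 to 0.085 with 1 library left out. Signs turned for *B2m* (0.037 with library size only, 0.15 in the 4 libraries, -0.19 to 0.085 with 1 library left out), *H2-K1* (0.056, 0.081 and -0.11 to 0.021) and *Tap1* (-0.015 with limma-voom, -0.0093 with the replicate block, -0.0084 with the covariate, -0.081 to 0.25 with 1 library left out), for which the cause was not tested. Over all genes 40 were called higher and 2 lower, against 200 and 83 with DESeq2, 62 and 5 with no filter, 59 and 1 with library size only, 73 and 40 in the 4 libraries, 213 and 210 with the covariate, and 6 to 59 higher with 1 library left out. With 3 libraries a group, the 95% intervals of 6 of the 7 class II genes included 0.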
